A study of Mus musculus with 6 samples.

Results

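The genes described here are the abundant long intergenic non-coding RNA (lincRNA) genes of the mouse testis. They were chosen by biotype and by measured level, as the genes with biotype lincRNA whose mean over all 6 libraries was 10 CPM or more. CPM is the read count divided by the total of the library and multiplied by 1000000. 230 of the 5559 lincRNA genes of the deposited table met this rule, out of 54532 genes in all. 1700052I22Rik, the lincRNA gene that was knocked out, was set aside. It was at 0 in the KO libraries and averaged 10.7 ± 1.19 CPM in the WT libraries (SD, n = 3), so its level in WT testis was just above the threshold, while its mean over the 6 libraries was 5.35 CPM. RNA of whole testis was sequenced in 3 libraries of 1700052I22Rik-KO testes (KO) and 3 libraries of wild-type testes (WT), and the study asks what this RNA does in spermatogenesis. The sources used here do not give the strain and age of the mice, the deleted part of the gene or the number of animals behind each library. P-values therefore measure only the spread between these libraries, which may be technical. Membership used the mean over all 6 libraries, so the levels are given as a description. The difference between KO and WT was not a criterion, but it is not fully separate from membership. In the WT libraries alone 221 of the 230 reached 10 CPM, and the others passed only through the KO libraries, where they were higher. Members such as Gm13001 passed only through the WT libraries.

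A lincRNA is a transcript that lies between protein-coding genes, is usually spliced and polyadenylated like a messenger RNA, and is not translated into a recognised protein. The testis is known for transcribing more lincRNA genes than most other organs, mainly in meiotic spermatocytes and round spermatids, whose chromatin is widely open. Some lincRNAs act on chromatin or as scaffolds of nuclear bodies, some are hosts of microRNAs, and the function of most is unknown. The names of the members show this: 143 carry RIKEN clone names and 63 are numbered gene models with the prefix Gm. For such genes no function is stated here.

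Promoters are shown first for 4 members, chosen because they are abundant and hold a motif of a factor that acts in male germ cells. They come from RefSeq (build GRCm38.p6, the sequence of mm10) and run from 250 bases before to 50 bases after the annotated start. Capitals mark the MYB core (CCGTTG or CAGTTG), the TATA box (TATAAA) and the full cAMP response element (TGACGTCA), each on either strand. MYB proteins, of which A-MYB is a regulator of meiotic transcription, bind the first, and CREM, a regulator of spermatid genes, binds the last. 1700008K24Rik is at chr17:49113484-49113783, minus strand, Rbakdn at chr5:143165702-143166001, minus strand, 1700001L05Rik at chr15:83367248-83367547, minus strand, and C030037D09Rik at chr11:88718393-88718692, plus strand.
1700008K24Rik: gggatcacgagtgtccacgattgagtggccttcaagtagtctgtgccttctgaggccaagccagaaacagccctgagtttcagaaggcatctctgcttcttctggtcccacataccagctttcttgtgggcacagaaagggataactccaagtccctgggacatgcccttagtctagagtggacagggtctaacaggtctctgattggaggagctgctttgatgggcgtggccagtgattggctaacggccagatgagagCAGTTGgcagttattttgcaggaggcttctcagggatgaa
Rbakdn: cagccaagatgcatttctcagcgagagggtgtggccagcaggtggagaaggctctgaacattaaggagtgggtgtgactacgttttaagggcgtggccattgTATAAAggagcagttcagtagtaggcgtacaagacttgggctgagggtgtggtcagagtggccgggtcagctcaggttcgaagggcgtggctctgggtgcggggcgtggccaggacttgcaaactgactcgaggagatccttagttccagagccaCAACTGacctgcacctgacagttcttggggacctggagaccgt
1700001L05Rik: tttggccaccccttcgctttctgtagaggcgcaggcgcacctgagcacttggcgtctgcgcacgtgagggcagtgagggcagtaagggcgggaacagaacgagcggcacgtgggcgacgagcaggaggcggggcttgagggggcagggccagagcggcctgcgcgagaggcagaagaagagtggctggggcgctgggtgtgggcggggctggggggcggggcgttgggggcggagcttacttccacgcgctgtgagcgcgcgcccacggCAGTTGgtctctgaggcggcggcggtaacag
C030037D09Rik: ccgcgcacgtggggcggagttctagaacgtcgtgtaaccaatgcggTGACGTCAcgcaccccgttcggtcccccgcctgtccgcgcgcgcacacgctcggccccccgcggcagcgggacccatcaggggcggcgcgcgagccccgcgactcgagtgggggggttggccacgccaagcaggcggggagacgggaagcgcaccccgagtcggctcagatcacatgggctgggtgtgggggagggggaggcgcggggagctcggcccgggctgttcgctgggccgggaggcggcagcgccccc
The MYB core lies near the start in 1700008K24Rik, Rbakdn and 1700001L05Rik, the TATA box is in Rbakdn, and the cAMP response element is in C030037D09Rik.

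A RefSeq promoter could be matched for 154 of the 230 members, and in 125 of them the RefSeq start lay within 100 bases of the start in the deposited table. The MYB core was present in 46 of the 154 (29.9%), against 18.1% of all 32851 RefSeq promoters of this length and 18.97% of 1344 promoters of lincRNA genes under 1 CPM. The full cAMP response element was in 6 (3.90%), against 1.79% of all promoters and 0.893% of those of scarce lincRNA genes. The TATA box was in 26 (16.9%), against 13.6% of all promoters and 18.8% of those of scarce lincRNA genes. The letters GTTGCCATG, a form of the motif of RFX factors, which act in spermatid and cilium genes, were in 3 (1.95%), against 0.773% of all promoters and 1.34% of those of scarce lincRNA genes. CG dinucleotides were few, with a median of 4 per promoter in the members and in scarce lincRNA genes, against 7 over all promoters. These matches describe letters in a window and do not show that a factor binds there.

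The libraries were alike in depth, with 17635045 to 17957707 counts in KO and 17794450 to 18117593 in WT. The transcripts were those of a testis with late germ cells: 10 elongating spermatid markers, protamine and transition protein genes among them, summed to 18152 to 21022 CPM in KO and 18737 to 20749.8 CPM in WT. 1700052I22Rik was at 0 counts in all 3 KO libraries and at 185, 175 and 218 counts in WT 1 to WT 3, and it was the 1 gene called in the fit over all genes by edgeR's quasi-likelihood test (adjusted p = 4.89e-07). KO 2 and WT 1 stood apart by a low sum of 12 Leydig cell markers, 734 CPM in KO 2 and 709 CPM in WT 1. The sum was 969 to 1125 CPM in the other KO libraries and 1245 to 1483 CPM in the other WT libraries. Not every marker was low in WT 1. Cyp17a1 had 21.03 CPM in WT 1, against 361 and 244 CPM in WT 2 and WT 3 and 65.1 to 274 CPM in KO. Insl3 had 78.4 CPM in WT 1, near the 84.5 and 83.02 CPM of WT 2 and WT 3. In KO, Insl3 had 17.4 to 55.1 CPM, with KO 2 lowest. In whole tissue, fewer cells of a type and less RNA per cell cannot be told apart.

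The members made up a small and even share of the RNA. They held 0.887%, 0.863% and 0.899% of the counts in KO 1 to KO 3, against 0.870%, 0.851% and 0.838% in WT 1 to WT 3. Of all counts on lincRNA genes, 71.3% fell on these 230 genes, while 1913 of the 5559 lincRNA genes had no count in any library. Most members were only just abundant: the median was 16.8 CPM, 132 (57.4%) were under 20 CPM, 28 reached 50 CPM and 15 reached 100 CPM. The 7 most abundant genes alone held 32.8% of the counts of the members, and the first 12 held 40.6%. Just above the threshold were Gm47381 (10.2 CPM), 4933400L20Rik (10.2 CPM) and 1700010J16Rik (10.2 CPM), and just below it 1700120G07Rik (9.90 CPM), Gm43262 (9.79 CPM) and Gm44006 (9.78 CPM). The smallest count of any member in any library was 62.

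The leading gene was 4930571K23Rik, a single-exon gene of 2153 bases on the plus strand of chromosome 7 (mm10, 125368861 to 125371013), 73663 bases from its nearest protein-coding neighbour Kdm8. Its levels were 799, 846 and 791 CPM in KO 1 to KO 3, against 836, 799.7 and 816 CPM in WT 1 to WT 3. The groups overlapped, and the highest library was 1.07 times the lowest, the smallest spread of all members (coefficient of variation 2.76%). RefSeq annotates this gene as protein-coding, while the deposited table and GENCODE M21 call it a lincRNA, so it may not belong to the class its biotype names. Its longest open reading frame from ATG to stop, in the GENCODE transcript, had 79 codons.

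1700008K24Rik, a gene of 3 exons on chromosome 17 (49112263 to 49113535, minus strand), was next. Its levels were 456, 403 and 446 CPM in KO 1 to KO 3, against 395, 441 and 431 CPM in WT 1 to WT 3. Both KO 2 and WT 1 were low, and the groups overlapped. Rbakdn, named for its place downstream of the KRAB zinc finger gene Rbak, lies on chromosome 5 (143164779 to 143165751, minus strand) with 3 exons. It had 425, 308 and 375 CPM in the KO libraries, against 396, 410.4 and 434 CPM in the WT libraries. KO 2 was the lowest of the 6 libraries, and the KO mean was 369.5 ± 59.0 CPM against 413 ± 19.3 CPM in WT (SD, n = 3 each).

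1700001L05Rik, 4 exons and 6112 exonic bases on chromosome 15 (83353847 to 83367282), ran the other way within KO, with 364, 423 and 381 CPM in KO 1 to KO 3 against 406, 389 and 357 CPM in WT 1 to WT 3. Here KO 2 and WT 1 were the 2 highest libraries. Gm2762 on chromosome 13 (53393657 to 53455630), next to the homeobox gene Msx2, had 286, 298 and 289 CPM in KO against 299, 274 and 298 CPM in WT. 4930449C09Rik on chromosome 15 (63717818 to 63737680) had 260.4, 293 and 266 CPM in KO against 285, 254 and 252 CPM in WT. 1700029M20Rik on chromosome 4 (135626655 to 135630198) had 283, 247 and 272 CPM in KO against 244, 258 and 273 CPM in WT. In all 3 genes the groups overlapped.

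The next 5 genes averaged between 121 and 153 CPM over the 6 libraries. Gm26917 on chromosome 17 (39843013 to 39846341) had 168, 134 and 148 CPM in KO against 147, 142 and 182 CPM in WT. It ends 11 bases before a gene that the table lists as rRNA, CT010467.1, described there as related to 18S ribosomal RNA. That neighbour had 1155, 546 and 1602 CPM in KO and 1056, 672 and 679 CPM in WT, so its highest library was 2.93 times its lowest, while for Gm26917 the ratio was 1.35. The part of ribosomal RNA fragments in the counts of Gm26917 was not tested. C2cd6b, named for a C2 calcium-dependent domain, had 145, 164 and 160.3 CPM in KO against 153, 148 and 128 CPM in WT. Its longest open reading frame had 213 codons. 9330102E08Rik averaged 141 ± 13.4 CPM in KO and 128 ± 3.85 CPM in WT, AY702103 127 ± 4.47 CPM in KO and 117 ± 9.28 CPM in WT, and Gm5922 126 ± 5.72 CPM in KO and 116 ± 7.16 CPM in WT (SD, n = 3 each).

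**Figure D1:**
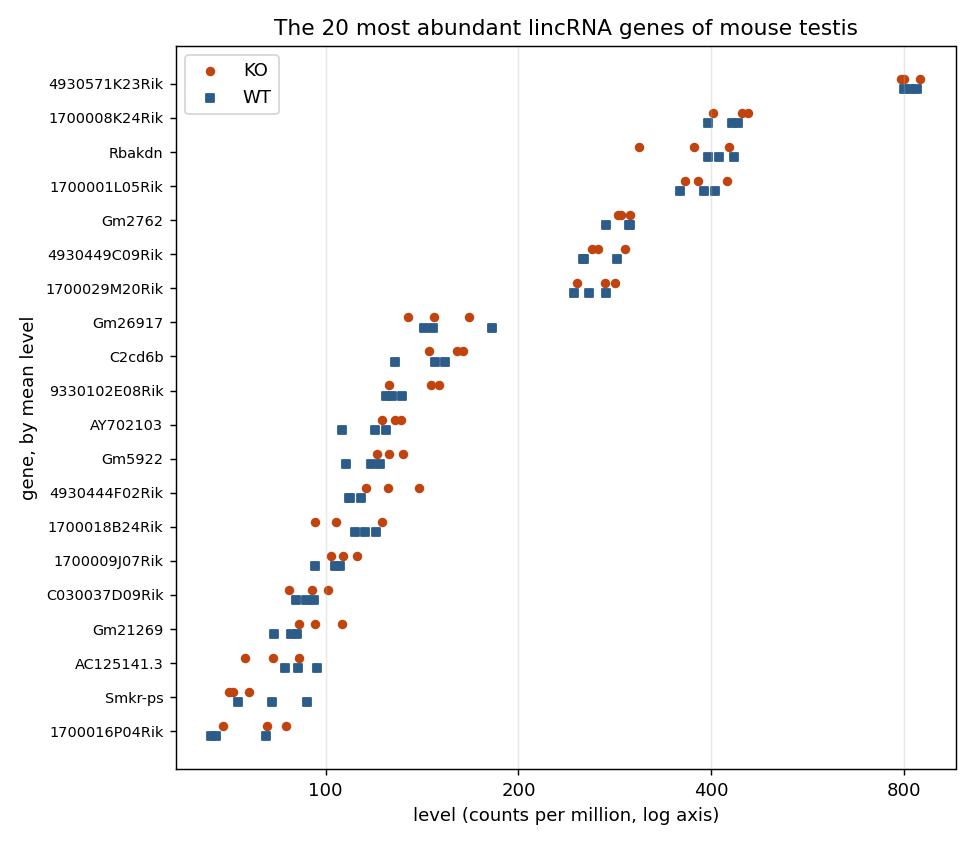
Level in CPM (log axis) of the 20 most abundant lincRNA genes in each library, KO libraries as circles above and WT libraries as squares below in each row. The levels of the 2 groups overlap or lie close together in each row, and 4930571K23Rik, at 791 to 846 CPM, stands far above the rest.

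Levels per length change the order. CPM divided by the exonic length in kilobases (CPM per kb) puts Rbakdn first at 615 CPM per kb, with 636 exonic bases, then 1700008K24Rik at 451, 4930571K23Rik at 378, 1700018B24Rik at 188 and 1700016P04Rik at 175 CPM per kb. The median member had 1428 exonic bases (quartiles 848 and 2532), against 4381 bases for 9239 protein-coding genes of 10 CPM or more. The median member thus reached 13.97 CPM per kb with 16.8 CPM, whereas the median of these protein-coding genes was 10.6 CPM per kb with 43.4 CPM. Both classes were cut at 10 CPM, which asks for more CPM per kb of a shorter gene, so these medians do not rank the classes. Length and level were weakly related across the 230 genes (Spearman's rho 0.13, a description across genes of the same libraries). 1700027F06Rik was the shortest, with 243 bases and 23.1 CPM. Neat1, whose RNA is the scaffold of nuclear paraspeckles, was the longest, with 20771 bases, 11.8 CPM and only 0.569 CPM per kb. The threshold itself does not correct for length: 202 lincRNA genes had at least 10 CPM per kb, of which 148 were members.

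Most members were spliced. By GENCODE M21, in which 230 of 230 were found and 227 had the same coordinates and exonic length as in the deposited table, 15 had a single exon in every transcript, 71 had at most 2 and 144 had 3 or more in their longest exon chain, up to 26 in Gm29825. A poly(A) signal, AATAAA or ATTAAA, lay within the last 50 bases of the longest transcript in 133 members (57.8%). The share was 57.1% for 923 other lincRNA genes of 1 to 10 CPM, 44.7% for those under 1 CPM with at least 1 count and 26.1% for those with no count. The last 30 bases of 4 of the 5 most abundant members are shown with the signal in capitals, from GENCODE M21, on chromosomes 7, 5, 15 and 13.
4930571K23Rik: AATAAAtggtatctggagaggtcacatgta
Rbakdn: tttcaaAATAAAagtaaaatttcaagctta
1700001L05Rik: atgagccaaAATAAAtctttattcatttca
Gm2762: aagtccccccAATAAActgtgcctgtgtaa
The signal was followed by 24, 18, 15 and 14 bases before the annotated end in these 4 genes, in the order shown. In 1700008K24Rik the last 30 bases held neither form.

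Annotations disagreed about coding for some members. Of 182 members matched in RefSeq, 167 were lncRNA there, 7 were protein-coding and 8 were pseudogenes of some kind. The 7 were 4930571K23Rik, Gm15104 (46.0 CPM), 1810058I24Rik (29.3 CPM), Tmem250-ps (23.0 CPM), Gm29825 (21.3 CPM), Gm2511 (18.7 CPM) and Gm6729 (10.4 CPM). The median longest open reading frame was 71.5 codons in the members, against 63 codons in lincRNA genes of 1 to 10 CPM and 53 codons in those with no count. Median exonic length fell in the same order, at 1428, 1070 and 905 bases. The open reading frames were thus not compared at equal length, and their medians do not rank the classes in coding. In 51 members (22.2%) it reached 100 codons, and the longest, 353 codons, was in Gm26917. No translation was measured.

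RefSeq places microRNA hairpins within 4 members. Gm21269, which holds Mir7234, had 96.3, 90.8 and 106.2 CPM in KO 1 to KO 3 against 88.2, 83.0 and 90.3 CPM in WT 1 to WT 3, and its lowest KO library was above its highest WT library. AC125141.3, which holds Mir7217 and Mir7218, had 82.8, 90.9 and 75.01 CPM in KO against 90.6, 97.0 and 86.3 CPM in WT, with overlap. Mir670hg, which holds Mir129-2 and Mir670, averaged 16.0 ± 3.35 CPM in KO and 14.6 ± 2.67 CPM in WT (SD, n = 3 each). The fourth was Mirg, described with the widely studied RNAs. These counts are of the host transcripts and say nothing of the mature microRNAs, which were not measured.

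Members were spread over all autosomes and the X chromosome, with none on the Y. Chromosome 5 held 22, chromosome 13 held 21, chromosome 10 held 20 and chromosome 6 held 17. As a share of the lincRNA genes annotated on each chromosome, the highest were chromosome 19 (4 of 54, 7.41%), the X chromosome (7 of 95, 7.37%) and chromosome 6 (17 of 234, 7.26%), and the genome-wide share was 4.14%. The Y chromosome has 549 lincRNA genes in the table, of which 2 reached 1 CPM and 0 reached 10 CPM. For comparison, 25.4% of X-linked protein-coding genes reached 10 CPM, against 33.7% to 51.9% on the autosomes. On the Y chromosome 3 of 183 protein-coding genes (1.64%) did, so the low share there was not particular to lincRNA genes.

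**Figure D2:**
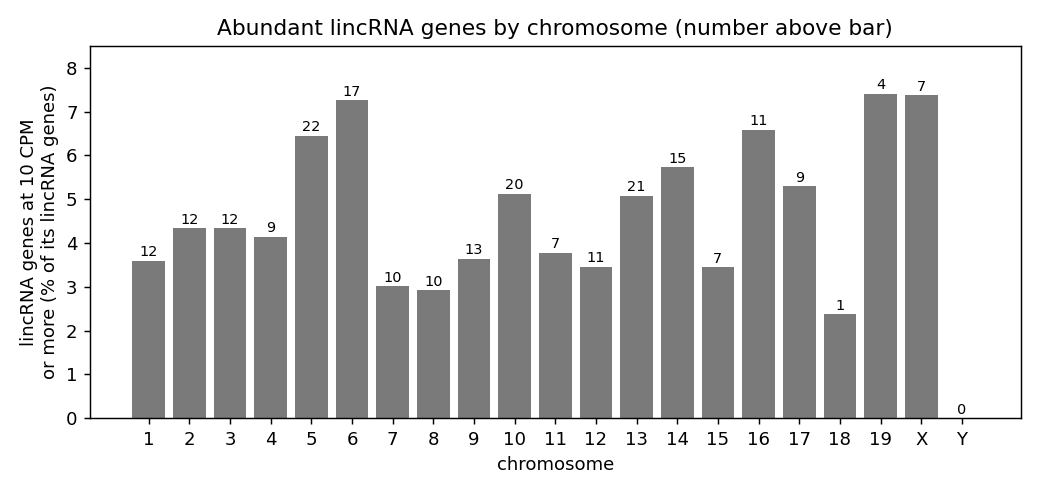
Percentage of the lincRNA genes of each chromosome that had a mean of 10 CPM or more, with their number above the bar. Chromosomes 6, 19 and X have the highest percentages, between 7.26% and 7.41%, and the Y chromosome has 0.

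The X chromosome is silenced in meiotic spermatocytes, and part of its genes are transcribed again in spermatids. Its 7 members ranged from 10.4 to 51.2 CPM. 1700010D01Rik led with 52.2, 46.7 and 58.6 CPM in KO 1 to KO 3, against 57.8, 46.8 and 45.2 CPM in WT 1 to WT 3. Gm15104 had 48.5, 45.1 and 57.9 CPM in KO against 46.9, 36.2 and 41.2 CPM in WT, with overlap between the groups. BC061195, Gm14773 and 4930453H23Rik had means of 20.5, 16.9 and 10.4 CPM over the 6 libraries. 1700003E24Rik and Tslrn1 are described with the comparison of KO and WT.

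Neighbouring genes bear on how far the counts belong to the members. Exons of 40 members overlapped those of another gene, 12 of them on the same strand, and in 11 of the 40 the most abundant partner was above the member. The sources used here do not say whether reads were counted by strand, so reads of such pairs cannot be told apart. 24 members started within 1000 bases of the start of a protein-coding gene on the opposite strand, as from a shared promoter region. One such pair is C030037D09Rik, whose promoter is shown above, and Msi2, which encodes an RNA-binding protein. C030037D09Rik had 101, 87.6 and 95.2 CPM in KO 1 to KO 3 against 89.9, 93.1 and 95.9 CPM in WT 1 to WT 3, and Msi2 averaged 62.2 ± 1.98 CPM in KO and 69.7 ± 5.39 CPM in WT (SD, n = 3 each). In other pairs 1 partner was nearly silent: 1700018A04Rik had 20.7 CPM beside Foxf2 at 0.11 CPM, and 4930570G19Rik 14.4 CPM beside Negr1 at 0.54 CPM. In the opposite case 1700086P04Rik had 17.5 CPM beside Rnf19b at 639 CPM. Only 28 members lay within 100000 bases of another member, in 14 pairs.

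Few members were widely studied RNAs. Of 50 such long non-coding RNAs that were looked up, 43 were in the table, 19 of them as lincRNA, and 3 were members: Malat1, Mirg and Neat1. Malat1, a nuclear RNA that is among the most abundant transcripts of many tissues, had 11.9, 14.2 and 16.7 CPM in KO 1 to KO 3 against 21.3, 10.4 and 8.46 CPM in WT 1 to WT 3. WT 1 was highest and WT 3 lowest, so the WT libraries spanned the whole range of the KO libraries. Mirg, the host of microRNAs of the imprinted Dlk1-Dio3 region, had 15.4, 10.6 and 13.98 CPM in KO against 11.1, 12.9 and 12.9 CPM in WT. Neat1, which lies 22035 bases from Malat1 on chromosome 19, had 13.2, 10.3 and 14.4 CPM in KO against 10.4, 11.01 and 11.5 CPM in WT. The libraries were made with an mRNA-seq kit. How fully it captures nuclear RNAs such as Malat1 and Neat1 was not tested, so their low counts may not give their levels in testis. Of the 43, 33 were tested between KO and WT, 0 were called by edgeR, and 1, Pvt1, had an unadjusted p under 0.05. Other well known ones were below the threshold, among them Pvt1 (6.70 CPM), H19 (1.11 CPM), Meg3 (1.08 CPM) and Xist (0.502 CPM), or were listed with another biotype, such as Tug1 (antisense, 77.1 CPM) and Gas5 (processed transcript, 16.6 CPM).

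Spread between libraries was modest for most members. The median coefficient of variation over the 6 libraries was 11.2%, against 9.08% for 6885 protein-coding genes of 10 to 100 CPM, and 18 members exceeded 20%. The 2 classes were not matched in level, with medians of 16.8 CPM in the members and 30.3 CPM in these protein-coding genes. Gm10076, a single-exon gene on chromosome 14 that RefSeq lists as a pseudogene, varied most: 7.02, 3.52 and 13.6 CPM in KO 1 to KO 3, against 10.98, 17.2 and 10.95 CPM in WT 1 to WT 3. Malat1 followed at 33.7%, and then 1700101O22Rik, with 14.9, 5.33 and 13.6 CPM in KO against 9.55, 11.4 and 16.0 CPM in WT. In Gm10076 and 1700101O22Rik the lowest library was KO 2. Gm26715 had 11.1, 10.5 and 13.6 CPM in KO against 15.7, 5.56 and 13.3 CPM in WT, where WT 2 was lowest. 4930405D11Rik had 20.7, 13.3 and 23.9 CPM in KO against 15.1, 12.8 and 14.7 CPM in WT. At the other end, besides 4930571K23Rik, were 1700067G17Rik (coefficient of variation 2.78%) and Gm2762 (3.34%).

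The comparison of KO with WT asks whether loss of 1700052I22Rik went with changes of the other lincRNAs. No abundant lincRNA gene was called. Of the 230 members, all tested, 0 passed the quasi-likelihood test of edgeR at an adjusted p under 0.05 (Benjamini-Hochberg over 19320 genes), against 0.00518% of all tested genes (1 gene, 1700052I22Rik itself). The adjusted p of the members lay between 0.965 and 0.998. DESeq2 and limma-voom also called 0 members. At an unadjusted p under 0.05 edgeR had 23 members, of which 20 (8.70%) were higher in KO and 3 (1.304%) lower, against 2.41% higher and 2.22% lower over all tested genes. The 95% interval of the fold change lay within 2-fold in either direction for 229 of the 230, Gm10076 being the exception, and within 1.5-fold for 204.

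Although no single gene passed, most fold changes were slightly above 0. The log2 fold change was positive in 174 members (75.7%), against 49.3% of all tested genes, and its median was 0.10 (quartiles 0.00243 and 0.17), against -0.0025 over all tested genes. For 924 lincRNA genes of 1 to 10 CPM, 1700052I22Rik included, the median was 0.07. It was 0.03 for 140 antisense genes and -0.0066 for 9239 protein-coding genes, both of 10 CPM or more. The 3 KO libraries lay above all 3 WT libraries in 24 members (10.4%) and below them in 5 (2.17%), against 4.09% and 5.28% of all tested genes. The counts for the members include genes that reached 10 CPM only through the group where they were higher. No test of the list as a whole was made, since its members share libraries and may vary together.

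By library the shift was not a clean split between genotypes. Relative to the WT mean, the median log2 level of the members was 0.06, 0.05 and 0.09 in KO 1 to KO 3, against 0.06, -0.01 and -0.04 in WT 1 to WT 3. WT 1 lay within the range of the KO libraries, so the groups overlapped. KO 3 was the highest of the 6 libraries in 75 members, and WT 3 was the lowest in 81 and WT 2 in 56. Leaving out 1 library in turn gave medians between 0.06 and 0.12, and the members with an unadjusted p under 0.05 also depended on the libraries. Without KO 3 they were 5 higher (2.17%) and 3 lower (1.304%), in place of 20 and 3, against 0.952% higher and 1.53% lower of all genes in the same fit. Without WT 3 they were 12 higher (5.22%) and 7 lower (3.04%), against 2.61% and 1.75% of all genes. Without KO 2 they were 42 higher (18.3%) and 1 lower (0.435%), while the share of all genes also was larger than with all 6 libraries, at 4.61% higher and 2.72% lower. With KO 2 and WT 1 both left out they were 41 higher (17.8%) and 1 lower (0.435%), against 4.62% and 3.89% of all genes, and the median log2 fold change of the members was 0.14.

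**Figure D3:**
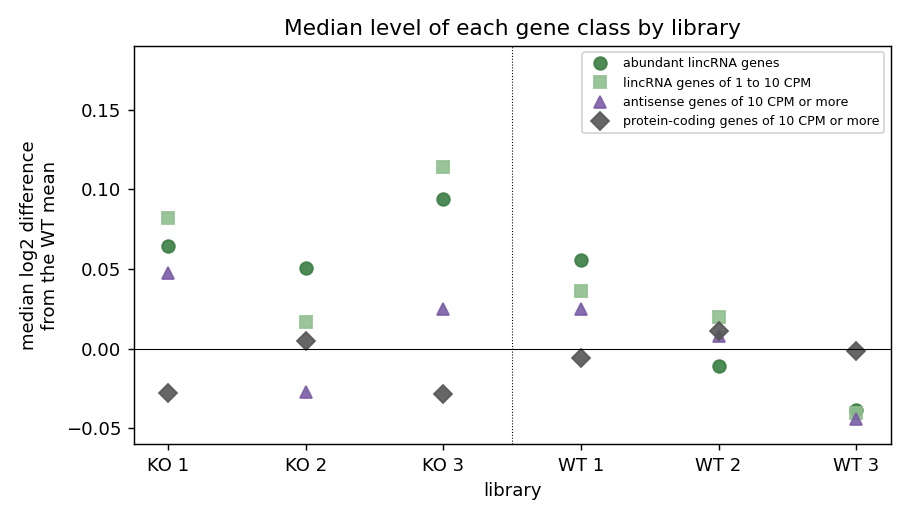
Median log2 difference from the WT mean in each library, KO libraries left and WT libraries right, for 4 classes of genes. The abundant lincRNA genes (circles) lie at 0.05 to 0.09 in KO and at -0.04 to 0.06 in WT, and the protein-coding genes (diamonds) lie at -0.03 to 0.005 in KO and at -0.006 to 0.01 in WT.

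Marker genes of other cells also differed between the libraries. The 12 Leydig cell markers summed to 1125, 734 and 969 CPM in KO 1 to KO 3 and to 709, 1483 and 1245 CPM in WT 1 to WT 3, and 12 of 12 had a log2 fold change below 0. The 10 macrophage markers summed to 86.4 to 99.3 CPM in KO and 97.0 to 129 CPM in WT, with 10 of 10 below 0. The 12 Sertoli cell markers summed to 1670.2 to 1724 CPM in KO and 1727 to 1976 CPM in WT, with 4 of 12 above 0 (median log2 fold change -0.14). For germ cells, 10 spermatogonia markers summed to 187 to 200.4 CPM in KO and 196 to 213 CPM in WT (median log2 fold change -0.10, 4 of 10 above 0), 9 round spermatid markers summed to 1280.5 to 1353 CPM in KO and 1161 to 1367 CPM in WT (median log2 fold change 0.09, 8 of 9 above 0), and 11 spermatocyte markers to 1592 to 1673 CPM in KO and 1549.6 to 1661 CPM in WT (median 0.01). The 3 blood markers summed to 16.2 to 31.1 CPM in KO and 26.7 to 40.8 CPM in WT, with 3 of 3 below 0 and a median of -0.46. Other lists had no such direction: 3 of 5 endothelial markers were above 0 (median 0.05) and 5 of 10 elongating spermatid markers (median 0.02). Of the 4 peritubular myoid markers tested, 1 was above 0 (median -0.06). None of these lists had a member at 0 in every library. Their part in the shift of the lincRNA genes was not tested.

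**Figure D4:**
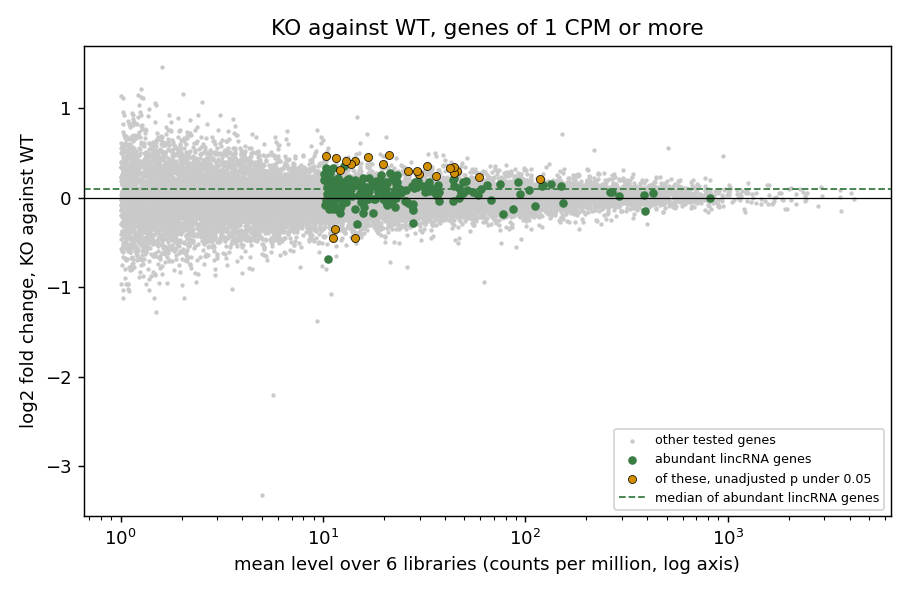
Log2 fold change of KO against WT by mean level (log axis) for genes of 1 CPM or more other than 1700052I22Rik, with abundant lincRNA genes in green and those with an unadjusted p under 0.05 in orange. The dashed line is their median of 0.10, and 20 of the 23 orange points lie above 0.

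The 5 members with the smallest p on the higher side had modest differences. Gm29825, a gene of 26 exons on chromosome 9 (114118088 to 114192640) that RefSeq annotates as protein-coding, had 24.5, 23.5 and 26.01 CPM in KO 1 to KO 3, against 20.8, 15.2 and 17.6 CPM in WT 1 to WT 3. The KO libraries were all above the WT libraries, with a log2 fold change of 0.48 (95% interval 0.21 to 0.75, edgeR's adjusted p = 0.965; two-sided exact permutation p = 0.1, the smallest that 3 against 3 allows). AC122375.2 on chromosome 16 (78695034 to 78709083) had 44.02, 44.8 and 53.3 CPM in KO against 38.6, 36.1 and 39.2 CPM in WT (log2 fold change 0.33, 95% interval 0.12 to 0.55). 1700003E24Rik on the X chromosome (93156154 to 93156873) had 51.9, 46.6 and 49.3 CPM in KO against 44.4, 36.0 and 37.3 CPM in WT (log2 fold change 0.34, 95% interval 0.12 to 0.56). BC061195 lies nearby on the same strand and has the same exonic length, 577 bases, and the same longest open reading frame, 78 codons. It had 21.7, 14.3 and 24.4 CPM in KO against 23.1, 20.2 and 19.2 CPM in WT (log2 fold change -0.036). Whether reads were divided between these genes was not tested.

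Gm6729 on chromosome 10, protein-coding in RefSeq, had 12.04, 11.5 and 12.5 CPM in KO against 9.88, 7.76 and 8.57 CPM in WT. Its log2 fold change was 0.47 (95% interval 0.16 to 0.78). Its WT libraries were all under 10 CPM, so it is a member only through the KO libraries, where it was higher. 4933435G04Rik, a single-exon gene on chromosome 7, had 34.0, 34.6 and 40.5 CPM in KO against 26.9, 26.5 and 32.7 CPM in WT (log2 fold change 0.35, 95% interval 0.11 to 0.60). In each of these 5 members with the smallest p on the higher side the lowest KO library was above the highest WT library. Each had the same adjusted p of 0.965 by edgeR.

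On the lower side, Gm13001 on chromosome 4 (137117143 to 137118143) had 9.92, 9.36 and 9.13 CPM in KO 1 to KO 3, against 14.1, 11.7 and 13.2 CPM in WT 1 to WT 3. The groups did not overlap, and the log2 fold change was -0.45 (95% interval -0.74 to -0.15). The KO libraries were all under 10 CPM, so Gm13001 is a member only through the WT libraries. Its exons overlap those of 1700037C06Rik on the same strand, also a member, which had 24.6, 26.4 and 23.6 CPM in KO against 23.9, 24.9 and 21.2 CPM in WT, so reads in the shared part are uncertain. Tslrn1, described in the table as a testis-specific long non-coding RNA and lying on the X chromosome (62510539 to 62527011), had 9.64, 9.64 and 10.9 CPM in KO against 14.1, 12.7 and 11.9 CPM in WT. Its groups were also apart, with a log2 fold change of -0.35 (95% interval -0.64 to -0.06). 1700041C23Rik had 14.9, 10.3 and 11.2 CPM in KO against 16.4, 19.6 and 14.05 CPM in WT (log2 fold change -0.45, 95% interval -0.80 to -0.09), with KO 1 above WT 3.

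The other 2 with the smallest p on this side had intervals that include 0. 1700064M15Rik on chromosome 12 had 14.9, 11.001 and 13.7 CPM in KO against 17.7, 16.1 and 15.2 CPM in WT (log2 fold change -0.29, 95% interval -0.60 to 0.0097). Its log2 fold change was -0.17 without KO 2 and -0.10 without KO 2 and WT 1. Gm10076, whose values are given above, had the largest negative fold change of the members, -0.68 (95% interval -1.38 to 0.02), and its groups overlapped. That value rested on single libraries: it was -0.32 without KO 2, where Gm13001 was at -0.43 and 1700041C23Rik at -0.33, -1.29 without KO 3, -0.44 without WT 2 and -0.42 without KO 2 and WT 1. By edgeR, the adjusted p was 0.965 for all 5 genes on the lower side. With no filter on low counts, where 32986 genes were tested, Gm10076 was called (adjusted p = 0.0258).

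**Figure D5:**
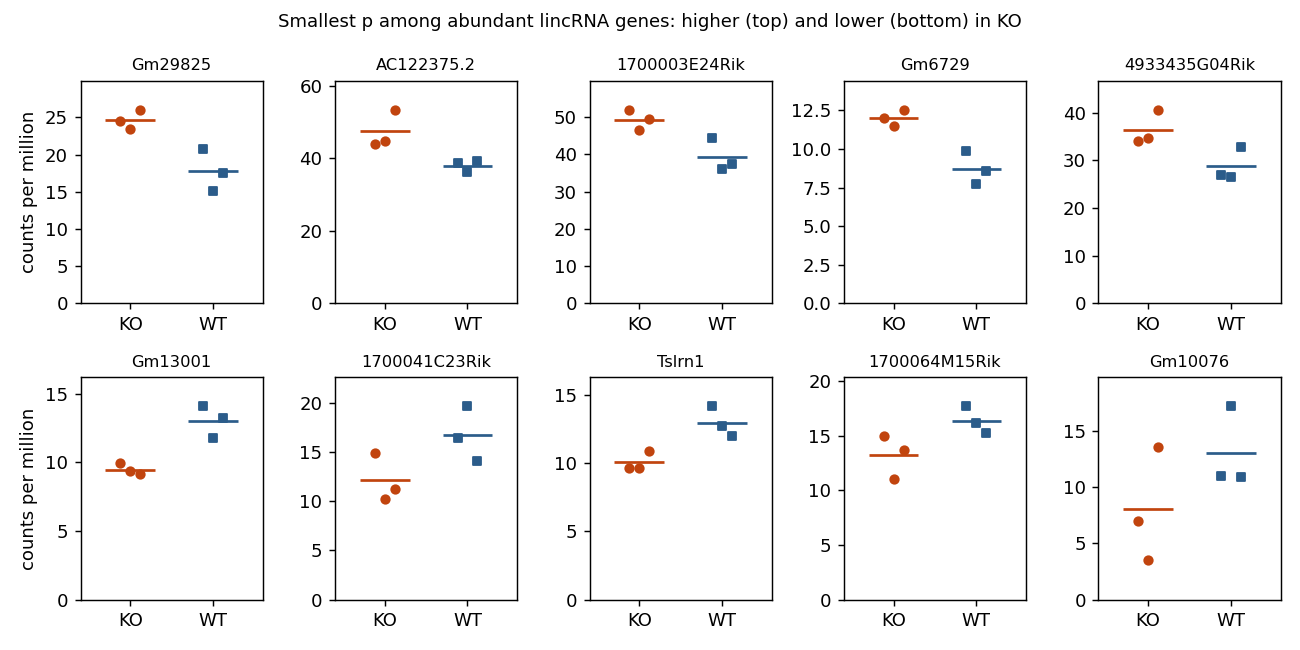
CPM by library for the 5 members with the smallest p on each side, KO circles left and WT squares right, with the group mean as a line and axes that start at 0. In the top row every KO library is above every WT library, and in the bottom row 1700041C23Rik and Gm10076 overlap.

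None of the members lies close to the deleted gene. 11 members are on chromosome 12, and the nearest, 4931403G20Rik, is 11069761 bases from 1700052I22Rik, so the 1 Mb around it holds 0 abundant lincRNA genes. 4931403G20Rik averaged 23.1 CPM over the 6 libraries with a log2 fold change of 0.18, and its exons overlap those of Map4k5. The most abundant of the 11, Gm47645, averaged 47.0 CPM with 0.11.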

How the data were processed

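Whole mouse testis RNA was extracted in TRIzol, and the VAHTS mRNA-seq v2 kit gave the sequencing libraries, per the labels' protocols. HISAT2 2.0.0 and mm10 are named in the submitters' processing notes. The authors deposited raw read counts per Ensembl gene with coordinates, exonic length and biotype. The sources used here do not name the counting tool, the annotation release or the strand setting. Columns were matched to the 3 KO and 3 WT samples by genotype and replicate number.

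CPM used the column totals. KO was compared with WT on the deposited counts in edgeR 4.0.16 (filterByExpr with a minimum count of 10, TMM, glmQLFit, glmQLFTest, no covariate, R 4.3.3), with Benjamini-Hochberg adjustment over 19320 genes and a threshold of 0.05. Intervals are 95% intervals from the moderated standard errors. Log2 levels by library used a pseudocount of 0.5 CPM. Alternatives were other scalings and filters, DESeq2 1.42.0, limma-voom (limma 3.58.1), the replicate number as a block, left-out libraries and other membership thresholds. The members, the gene lists and the alternatives were chosen with earlier results of these data known. Genes were named by level, level per length, p, spread, length, chromosome and a list of known RNAs; the microRNA hosts, the protein-coding genes of RefSeq, C030037D09Rik, the members on chromosome 12 and all neighbouring genes were named after their values were seen. Transcripts came from GENCODE M21 and promoters from RefSeq (GRCm38.p6). Intervals cover counting error and the spread between libraries only.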

Additional observations from a re-analysis of the deposited data

How the results depend on the processing

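The number of genes called, 1 with all 6 libraries, was 50 with no low-count filter, 2 with DESeq2 and 9 without WT 1 and KO 2. With 1 library left out in turn it was between 1 and 3. Of the members 0 were called under every alternative except the one with no low-count filter, where 1 was called, Gm10076; the cause was not tested. The median log2 fold change of the members was 0.14 without WT 1 and KO 2, and between 0.06 and 0.12 with 1 library left out. The number of members was 411 at a threshold of 5 CPM and 98 at 20 CPM, and 230 with TMM-scaled library sizes. With the WT libraries alone it was 221, all of them among the 230. With the replicate block, edgeR called 1 gene and 0 members, with a median of 0.09. The labels do not say that the numbers pair the libraries. Deviations from the group means of libraries with the same number had correlations of -0.173, -0.0289 and 0.114 across genes. For libraries with different numbers the correlations ran from -0.165 to 0.185. With 3 libraries a group these values cannot decide whether libraries were paired. Of 150 values of the 10 named fold changes under the 15 alternatives, 0 changed sign, 149 kept their side of the threshold and 1 passed it. The 10 genes were chosen by their p in the fit with all 6 libraries, and the alternatives reuse those libraries. These counts are therefore no separate check of the fold changes. The smallest count behind a member was 62 in a library, and with 3 libraries a group the 95% interval of the fold change lay within 1.5-fold for 204 of the 230 members, which limits the differences that could be seen in the others.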
